A study of Rattus norvegicus with 6 samples.

Results

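The interleukin-1 (IL-1) family was followed here through 10 genes, each found in the tables by its symbol: the ligands Il1a, Il1b, Il33 and Il18, the soluble antagonists Il1rn and Il18bp, and the receptors Il1r1, Il1r2, Il1rap and Il1rl1. They are 10 of the 29468 gene symbols in the tables. RNA was sequenced from Schwann cell precursors (SCPs) and from repair Schwann cells (RSCs), with 3 samples per group, all labelled as wild type LEWIS and as untreated, the nerve cut of the RSC donors aside. SCPs came from the sciatic nerves and brachial plexus of embryos at embryonic day 14. RSCs came from the distal part of the cut sciatic nerve of rats aged 10 weeks, 1 week after the cut. Age, nerve source and injury therefore all differed between the groups and cannot be told apart. The groups were compared to ask how gene expression differs between developing and repair-state Schwann cells.

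IL-1 alpha and IL-1 beta both signal through the receptor encoded by Il1r1 together with the accessory chain encoded by Il1rap, and the same accessory chain is shared by the IL-33 receptor, encoded by Il1rl1. IL-1 receptor antagonist, encoded by Il1rn, occupies Il1r1 without signalling, Il1r2 is a decoy receptor, and IL-18 binding protein neutralises IL-18. IL-1 beta and IL-18 are cut to their active form by caspase-1 in the inflammasome, whereas IL-33 is a nuclear protein released when cells are damaged. In injured peripheral nerve, IL-1 cytokines are made by Schwann cells and by the macrophages that enter the nerve.

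The upstream sequences of the members that were higher in RSCs are given first, since these members rose together. They are the 250 bases before the start of transcription in RefSeq on the rat build GRCr8, each in the direction of transcription, and capitals mark the motifs searched. RefSeq held 11 such windows for 9 of the 10 members, and Il33 had 2 of them, 19373 bases apart.
Il33, upstream start, chr1:237115323-237115572, plus strand: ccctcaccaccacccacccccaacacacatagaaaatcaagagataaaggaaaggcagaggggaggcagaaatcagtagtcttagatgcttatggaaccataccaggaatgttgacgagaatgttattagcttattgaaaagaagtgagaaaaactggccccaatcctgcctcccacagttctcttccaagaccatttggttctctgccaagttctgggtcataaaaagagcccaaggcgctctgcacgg
Il33, downstream start, chr1:237134696-237134945, plus strand: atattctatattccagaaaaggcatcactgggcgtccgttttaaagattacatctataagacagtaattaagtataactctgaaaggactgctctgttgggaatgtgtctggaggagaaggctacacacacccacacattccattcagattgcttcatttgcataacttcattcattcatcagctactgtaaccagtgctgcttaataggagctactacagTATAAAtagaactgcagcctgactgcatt
Il1a, chr3:136990018-136990267, minus strand: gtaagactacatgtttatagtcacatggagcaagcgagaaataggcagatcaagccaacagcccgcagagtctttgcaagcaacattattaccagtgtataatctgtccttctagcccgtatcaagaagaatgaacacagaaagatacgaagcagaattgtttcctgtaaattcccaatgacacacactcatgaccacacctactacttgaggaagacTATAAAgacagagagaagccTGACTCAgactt
Il1b, chr3:137036582-137036831, minus strand: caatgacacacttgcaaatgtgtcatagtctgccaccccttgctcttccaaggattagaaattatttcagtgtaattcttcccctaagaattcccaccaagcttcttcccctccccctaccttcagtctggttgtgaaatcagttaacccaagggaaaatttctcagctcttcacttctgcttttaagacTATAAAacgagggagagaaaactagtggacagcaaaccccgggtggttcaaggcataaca
Il1rn, chr3:27520072-27520321, plus strand: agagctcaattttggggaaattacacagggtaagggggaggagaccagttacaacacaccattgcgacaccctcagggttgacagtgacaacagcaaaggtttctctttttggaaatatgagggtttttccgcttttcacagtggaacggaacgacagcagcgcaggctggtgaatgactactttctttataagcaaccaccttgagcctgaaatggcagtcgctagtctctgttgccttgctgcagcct
Il1r1, chr9:50034133-50034382, plus strand: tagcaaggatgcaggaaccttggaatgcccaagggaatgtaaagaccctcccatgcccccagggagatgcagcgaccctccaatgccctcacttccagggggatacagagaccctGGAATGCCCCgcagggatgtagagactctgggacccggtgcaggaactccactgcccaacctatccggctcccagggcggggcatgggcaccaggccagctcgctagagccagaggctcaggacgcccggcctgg

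The motifs were the TATA box (TATAAA, on the transcribed direction only), the AP-1 motif (TGANTCA, both strands) and the NF-kB motif (both strands), and none of the matches above overlapped another. TATAAA lay 32 to 27 bases before the start in Il1a, 60 to 55 in Il1b and 29 to 24 at the downstream start of Il33, so 3 of the 11 windows held it, against 8.06% of all 33469 rat windows of this length. The AP-1 motif was found in Il1a alone among the members, 12 to 6 bases before the start, against 6.34% of all windows. The NF-kB motif was found in Il1r1, 135 to 126 bases before the start, and in both windows of Il1rap, which overlap and share 1 match, against 3.54% of all windows. These matches describe the letters in these windows and are not binding sites.

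Of the 10 members, 9 had a mean of at least 1 FPKM (fragments of RNA per unit of transcript length and of mapped reads) over the 6 samples and were tested. With limma on log2(FPKM + 1), 5 of the 9 were higher in RSCs at an unadjusted p under 0.01, the study's threshold, and all 5 were also past its 4-fold threshold. Across the whole table of 13003 tested genes, RSCs were higher at that p in 18.1%, and by over 4-fold in 7.81%. None of the members was higher in SCPs at p under 0.01 or at p under 0.05, against 22.4% of all tested genes at p under 0.01. In 6 of the 9, every RSC sample exceeded every SCP sample, against 24.9% of all tested genes. The median log2 fold change was 2.88 over the 9 members and -0.17 over all tested genes. All log2 fold changes are RSC minus SCP on the log2(FPKM + 1) scale, on which the added 1 compresses changes at low FPKM. The plot of expression by sample shows all 10 genes.

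**Figure D1:**
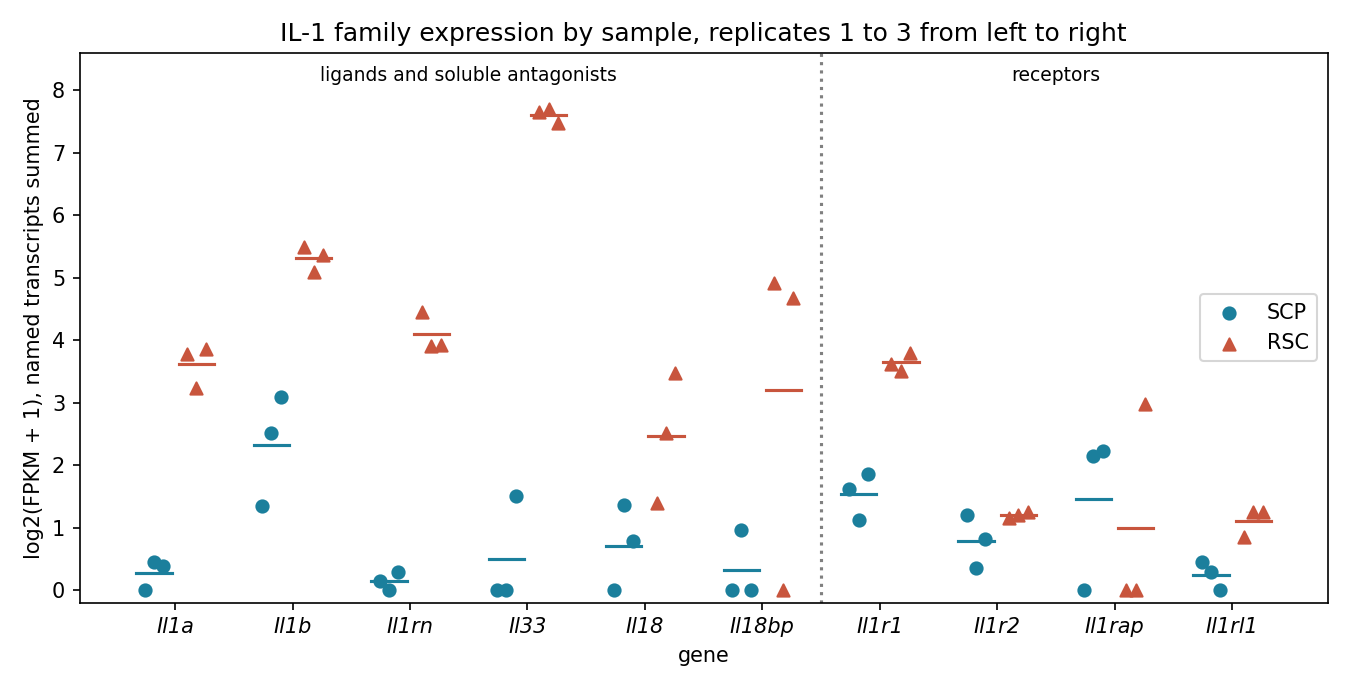
Expression of the 10 IL-1 family genes, as log2(FPKM + 1) on the vertical axis, in each of the 3 SCP samples (circles) and 3 RSC samples (triangles), with a bar at the mean of the log values. Il33, Il1b, Il1rn, Il1a and Il1r1 separate the groups, and Il18 and Il1rl1 do so by small margins. Il1rap and Il18bp each hold values of 0 in both groups.

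Among the ligands, Il33 had the highest level in RSCs, with 200.4, 207 and 178 FPKM in RSC replicates 1, 2 and 3 against 0, 0 and 1.85 FPKM in SCP replicates 1, 2 and 3. Its mean in RSCs, 195 ± 15.1 FPKM (SD, n = 3), exceeded that of 97.0% of the tested genes. Its log2 fold change was 7.11 (SE 0.43, limma adjusted p = 9.8e-05). The tables also hold transcripts without a gene name, assembled separately from each sample. With those at the Il33 locus counted, Il33 had 2.63, 1.37 and 1.85 FPKM in SCPs and 200.4, 226 and 197 FPKM in RSCs, and the log2 fold change was 6.16 (SE 0.17, adjusted p = 1.5e-06). Il33 lies on chromosome 1 of rn6, at 248112636 to 248147030, and the tables list 2 transcripts of it with separate starts. The transcript from the upstream start had 85.4, 102 and 75.2 FPKM in RSC replicates 1, 2 and 3, and the transcript from the downstream start 115, 105 and 103 FPKM. The downstream transcript thus held between 50.7% and 57.9% of the Il33 FPKM in RSCs, and both transcripts were above 0 in every RSC sample. Cufflinks gave the downstream transcript the status LOWDATA in all 3 RSC samples, its mark for a locus too complex or too shallowly sequenced for a full estimate. The only named Il33 signal in SCPs, in replicate 3, was assigned to the downstream transcript. How the rn6 starts match the GRCr8 windows printed above was not tested.

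**Figure D2:**
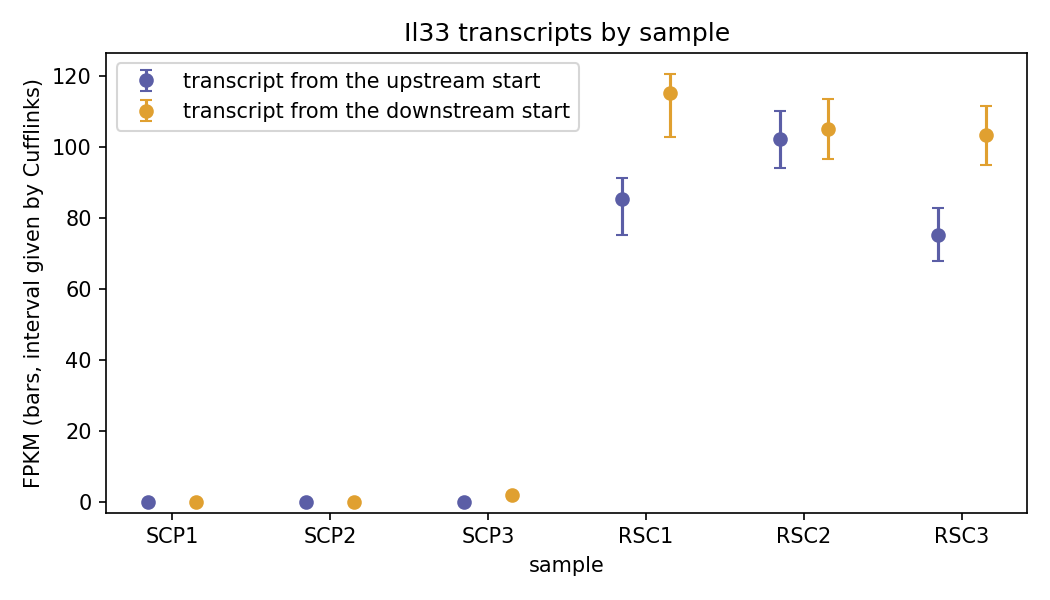
FPKM of the 2 Il33 transcripts in each sample, with the interval that Cufflinks gives for each estimate. Both transcripts are between 75.2 and 115 FPKM in the RSC samples and at most 1.85 FPKM in the SCP samples, and the intervals of the pair overlap in RSC replicate 2 but not in replicates 1 and 3.

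Il1b followed, with 44.2, 33.0 and 40.4 FPKM in RSC replicates 1, 2 and 3 and 1.54, 4.75 and 7.48 FPKM in SCP replicates 1, 2 and 3. The groups did not overlap, and the log2 fold change was 3.00 (SE 0.45, adjusted p = 0.0027). Il1b was the member with the highest level in SCPs, at 4.59 ± 2.97 FPKM (SD, n = 3). Il1a, its neighbour on chromosome 3 (Il1a at 121824712 to 121836122, Il1b at 121876256 to 121882637), had 12.7, 8.38 and 13.5 FPKM in RSCs and 0, 0.358 and 0.303 FPKM in SCPs. Its log2 fold change was 3.35 (SE 0.26, adjusted p = 0.00025). FPKM is scaled by transcript length, so the pair can be set side by side: Il1b was 3.49, 3.93 and 2.99 times as high as Il1a in RSC replicates 1, 2 and 3. Il33 was in turn 4.53, 6.28 and 4.41 times as high as Il1b in these samples. In SCPs, with unnamed transcripts counted, Il33 was 1.71, 0.289 and 0.247 times as high as Il1b in replicates 1, 2 and 3.

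Il1rn, the antagonist of IL-1 alpha and IL-1 beta, rose with its opponents, from 0.104, 0 and 0.220 FPKM in SCPs to 20.9, 14.0 and 14.1 FPKM in RSC replicates 1, 2 and 3. Its log2 fold change was 3.95 (SE 0.23, adjusted p = 8.8e-05), with no overlap between the groups. Within the RSC samples the ratio of Il1rn to the sum of Il1a and Il1b was 0.367, 0.339 and 0.262. The antagonist's mRNA was thus below that of the ligands summed in every RSC sample. It was below Il1b but above Il1a (12.7, 8.38 and 13.5 FPKM) in each of them. In SCPs the ratio to the sum was 0.068, 0 and 0.028, from values close to 0. An unnamed transcript of 2.53 FPKM at the Il1rn locus in RSC replicate 2 was not counted in these ratios. In RSC replicates 1 and 2 all of the Il1rn FPKM fell on 1 transcript, and in RSC replicate 3 that transcript held 51.3% and the rest was divided between 2 others with separate starts.

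Il18 had 1.63, 4.71 and 10.1 FPKM in RSC replicates 1, 2 and 3 and 0, 1.57 and 0.715 FPKM in SCPs. Of these 6 values 4 had the status LOWDATA, every RSC value among them. The groups were separated by a narrow margin, between 1.57 and 1.63 FPKM, and the difference did not pass the threshold (log2 fold change 1.75, 95% interval 0.22 to 3.27, adjusted p = 0.062 by limma). At the Il18 locus unnamed transcripts had 7.44, 7.498 and 5.48 FPKM in RSC replicates 1, 2 and 3, and there were none in SCPs. With them counted, Il18 had 9.07, 12.2 and 15.6 FPKM in RSCs, unchanged values in SCPs and a log2 fold change of 2.99 (SE 0.37, adjusted p = 0.00052). That fit placed 23.2% of its 14019 tested genes past the same threshold with RSCs higher.

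Il18bp had 29.1, 0 and 24.6 FPKM in RSC replicates 1, 2 and 3 and 0, 0.949 and 0 FPKM in SCPs. The groups overlapped through RSC replicate 2, and the difference did not pass the threshold (log2 fold change 2.88, 95% interval -0.45 to 6.20, limma adjusted p = 0.13). In RSC replicate 2 the Il18bp transcripts shared a Cufflinks locus with those of the adjacent gene Rnf121, all at 0 with the status LOWDATA. Rnf121 had 22.9 and 26.6 FPKM in the other two RSC samples and 10.2 to 17.5 FPKM in SCPs. The value of 0 in RSC replicate 2 is therefore listed here and not read as absence. Without that sample the log2 fold change was 4.47 (limma adjusted p = 0.0018, 2 RSC samples against 3 SCP samples). Without RSC replicate 1 it was 2.02 and without RSC replicate 3 it was 2.14, and neither passed (limma adjusted p = 0.32 in each). With unnamed transcripts counted it was 2.14 and did not pass (limma adjusted p = 0.26). SCP replicate 2 then had 8.99 FPKM and RSC replicates 1 and 3 had 32.6 and 24.6 FPKM.

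**Figure D3:**
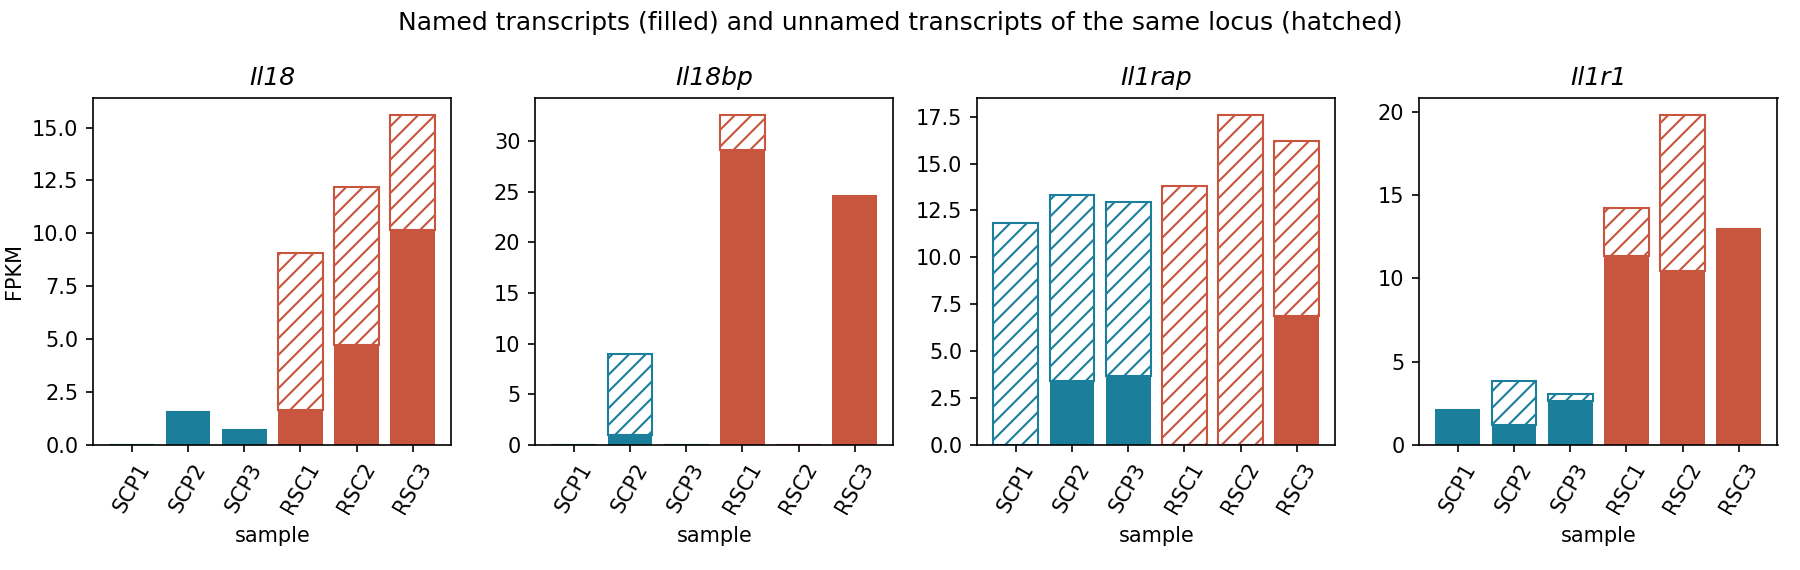
FPKM of named transcripts (filled) and of unnamed transcripts at the same locus (hatched), stacked for each sample, for Il18, Il18bp, Il1rap and Il1r1. Il1rap is carried mostly by unnamed transcripts in every sample, Il18 partly so in the 3 RSC samples, and Il18bp is at 0 in RSC replicate 2 with or without them.

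Of the receptors, Il1r1, which transmits the IL-1 signal, rose from 2.06, 1.18 and 2.61 FPKM in SCPs to 11.3, 10.4 and 12.95 FPKM in RSCs. The groups did not overlap and the log2 fold change was 2.12 (SE 0.24, adjusted p = 0.00096). The tables list 11 transcripts of Il1r1, on chromosome 9 at 46962292 to 47038139, of which 6 were above 0 in any sample, and 23 of the 66 values had the status LOWDATA. The transcript carrying most of the signal differed from sample to sample. When Il1r1 was read from its highest transcript alone, the call was lost (log2 fold change 1.31, limma adjusted p = 0.23), so the result rests on the sum over transcripts.

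Il1r2, the decoy receptor, had 1.24, 1.29 and 1.37 FPKM in RSCs and 1.31, 0.272 and 0.768 FPKM in SCPs. The groups overlapped, and the difference of 0.41 on the log2 scale had a 95% interval of -0.30 to 1.12 (limma adjusted p = 0.30). With named transcripts Il1r1 was 8.06 to 9.46 times as high as Il1r2 in RSCs and 1.57 to 4.36 times in SCPs. With unnamed transcripts counted, Il1r1 had 2.06, 3.83 and 3.06 FPKM in SCPs and 14.2, 19.8 and 12.95 FPKM in RSCs. Il1r2 was unchanged, and the ratios then overlapped between the groups through SCP replicate 2. The 1 Il1r2 transcript above 0 had the status LOWDATA in every sample. Il1rl1, the IL-33 receptor, had 0.795, 1.37 and 1.37 FPKM in RSCs and 0.368, 0.227 and 0 FPKM in SCPs. It was under the filter and was not tested in the main fit. With the filter removed it was tested on named transcripts and passed, which brought the members called from 5 to 6. That fit called 6195 of 20494 genes in either direction. With unnamed transcripts counted it had 1.88, 2.21 and 1.37 FPKM in RSCs and passed the threshold (log2 fold change 1.24, SE 0.21, adjusted p = 0.0021). In the RSC samples Il33 was 130 to 252 times as high as Il1rl1, per length, and 102 to 143 times with unnamed transcripts counted for both genes.

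Il1rap, the shared accessory chain, was listed at 0 in SCP replicate 1 and in RSC replicates 1 and 2, and had 3.42 and 3.66 FPKM in SCP replicates 2 and 3 and 6.88 FPKM in RSC replicate 3. Its difference was -0.46 on the log2 scale with a 95% interval of -2.999 to 2.07 (limma adjusted p = 0.74), an interval that spans both directions. The 1 Il1rap transcript above 0 had the status LOWDATA in every sample but RSC replicate 3, the values of 0 included. With unnamed transcripts at its locus counted, no sample was at 0: SCP replicates 1, 2 and 3 had 11.8, 13.3 and 12.9 FPKM and RSC replicates 1, 2 and 3 had 13.8, 17.6 and 16.2 FPKM. The log2 fold change was then 0.30 (95% interval 0.0037 to 0.59, limma adjusted p = 0.068), of the opposite sign and below the threshold. A further unnamed transcript of 9.84 FPKM in RSC replicate 3 lay in the Il1rap span but in another Cufflinks locus and was not counted.

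**Figure D4:**
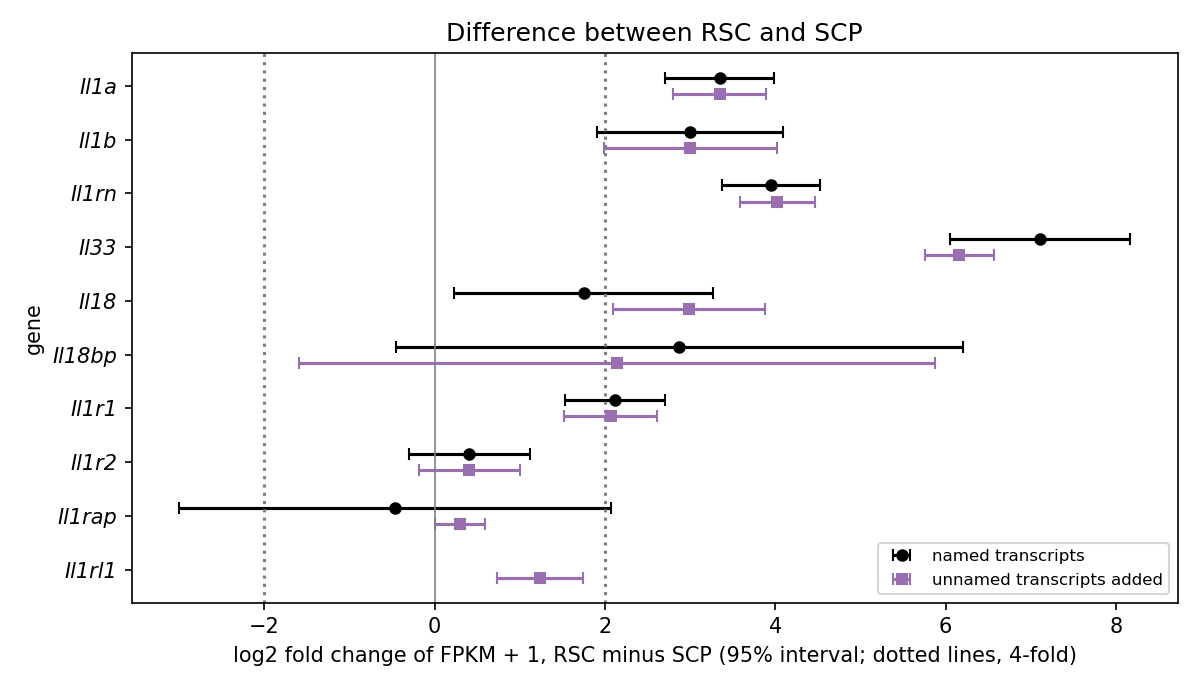
Log2 fold change of FPKM + 1, RSC minus SCP, with the 95% interval, for named transcripts (circles) and with unnamed transcripts counted (squares). Il33, Il1rn, Il1a, Il1b and Il1r1 lie right of 0 in both, at 2.07 or more. The intervals of Il18bp and Il1rap are wide for named transcripts, and Il1rl1 is shown only with unnamed transcripts counted.

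Among the remaining family genes, 1 of 11 was tested. This was Sigirr, an inhibitory receptor of the family, at 1.49, 3.10 and 3.79 FPKM in RSCs and 0.616, 0.230 and 0.519 FPKM in SCPs (log2 fold change 1.34, adjusted p = 0.017 by limma). It did not pass with quantile normalization (1.14). With unnamed transcripts counted Sigirr reached 18.8, 13.6 and 27.3 FPKM in RSCs. The IL-36 ligands and their receptor Il1rl2 stayed at or under 1.504 FPKM in every sample, and the IL-18 receptor chains Il18r1 and Il18rap at or under 0.510 FPKM.

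Genes of the inflammasome and of cytokine processing were counted next: 7 of 10 tested rose, none fell and 3 did not pass, against 18.1% higher and 22.4% lower among all tested genes. Their median log2 fold change was 1.68. Pycard, the inflammasome adaptor, rose from 4.06, 4.16 and 2.38 FPKM to 44.6, 48.5 and 41.9 FPKM. Capn1, a calpain of the kind that cuts the IL-1 alpha precursor, rose from 4.68, 4.70 and 7.91 FPKM to 54.8, 59.7 and 62.4 FPKM, and the sensor Nlrp3 from 0.376, 0.848 and 0.257 FPKM to 3.78, 3.90 and 6.34 FPKM. Casp1 itself was listed at 0 in RSC replicates 1 and 3 and at 6.88 FPKM in replicate 2, against 0.819 to 1.30 FPKM in SCPs, and did not pass (limma adjusted p = 0.95). With unnamed transcripts counted Casp1 had 15.3, 6.88 and 8.46 FPKM in RSCs and passed (log2 fold change 2.34, limma adjusted p = 0.00050).

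Of 26 tested signalling genes downstream of the receptors 8 rose, 3 fell and 15 did not pass, with a median of 0.24, against the same 18.1% higher and 22.4% lower among all tested genes. Those that rose most were Nfkbia, the NF-kB inhibitor that NF-kB itself induces, from 10.7, 15.4 and 17.4 FPKM to 279, 226 and 243 FPKM, the adaptor Myd88, from 2.24, 3.61 and 1.81 FPKM to 29.0, 25.5 and 18.2 FPKM, and Irak3, an inhibitory kinase of the pathway, with a log2 fold change of 2.32. The 3 that fell, Tab1, Map3k7 and Chuk, encode parts of the TAK1 and IKK kinase complexes, and fell by 0.71, 1.02 and 0.52 on the log2 scale. With median-of-ratios scaling none of these 3 passed (limma adjusted p = 0.029, 0.048 and 0.11), and with quantile normalization Tab1 alone passed. With unnamed transcripts counted, 10 of 27 tested signalling genes rose and 7 fell, beside 23.2% higher among all genes of that fit. More genes fell than rose in that fit, since 40.4% of its 8040 called genes were higher in RSCs.

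Of 14 tested genes known to be induced by IL-1, 11 rose, none fell and 3 did not pass, with a median of 2.496. Among all tested genes 18.1% were higher and 22.4% lower in RSCs. Il6, Lif, Ptgs2, Nos2 and Tnf averaged at most 0.728 FPKM in SCPs and passed the filter only through their RSC values. Their direction was therefore set in advance. With quantile normalization 1 of the 11, Nos2, did not pass (1.47). Lif, a cytokine for neurons and glia, rose from 0, 0 and 0.445 FPKM to 24.7, 24.6 and 28.8 FPKM, and the chemokine Cxcl1 had a log2 fold change of 4.75. Il6 was listed at 0 in all 3 SCP samples and had 25.8, 15.8 and 14.3 FPKM in RSCs. With unnamed transcripts counted, 13 of the 14 rose, against 23.2% of all genes in that fit, and the adhesion molecule Vcam1 fell. These genes also answer to other signals. The plot of pathway genes by role shows the lists side by side, and against the median of -0.17 over all tested genes.

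The Schwann cell label was checked against markers of these cells. Sox10 had 175 to 181 FPKM in SCPs and 143 to 149 FPKM in RSCs, and Ngfr was present in every sample. Markers of other cells were counted beside the 18.1% of all tested genes that were higher in RSCs and the 22.4% that were lower. All 12 macrophage markers were higher in RSCs, and their summed level was 18.5, 33.4 and 48.0 FPKM in SCP replicates 1, 2 and 3 and 2404 to 2854 FPKM in RSCs, with none at 0 in all samples of either group. Of the fibroblast markers 7 of 8 rose, with sums of 643 to 1022 FPKM in SCPs and 5380 to 8029 FPKM in RSCs. Of the mast cell markers all 4 tested rose, with sums of 0 to 0.603 FPKM in SCPs and 31.1 to 34.9 FPKM in RSCs, and Tpsb2, Tpsab1 and Fcer1a were at 0 in every SCP sample. The T and NK cell markers summed to 0.65 to 0.98 FPKM in SCPs and 93.0 to 130 FPKM in RSCs, mostly Cd4, which rat macrophages also carry. All 5 tested rose, 5 of the 7 were at 0 in every SCP sample, and Klrb1 was at 0 in all 6 samples. Of the neutrophil markers 1 of 2 tested rose, with sums of at most 2.37 FPKM in SCPs and 7.60 FPKM in RSCs. Mpo was at 0 in every RSC sample, and S100a8, Cxcr2 and Elane were at 0 in every SCP sample. None of 6 endothelial markers passed the threshold, and 3 of 4 perineurial markers rose, with sums of 26.7 to 35.1 FPKM in SCPs and 91.7 to 150 FPKM in RSCs. All 4 tested erythroid markers fell, with sums of 16659 to 74546 FPKM in SCPs and at most 1.58 FPKM in RSCs. A marker averaging under 1 FPKM in 1 group was tested only through the other group. This held for every tested mast, T and NK and neutrophil marker in SCPs and every tested erythroid marker in RSCs. In SCPs it also held for Ptprc, Emr1, Itgam, Cd14, Cd163, Dpt, Itgb4 and Msln. The direction of these markers was set in advance, and their counts do not test it. Per the study's methods, cells that stuck to uncoated flasks, fibroblasts and macrophages among them, were removed before the RNA was taken. The study also measured purity by Sox10 labelling of cultured cells, and most SCPs and most RSCs were positive. The part of these cells in the IL-1 family values was not tested. In RNA from a mixed preparation, more cells of a type and more RNA per cell cannot be told apart.

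The genes whose log2(FPKM + 1) followed the most abundant members most closely over the 6 samples were Duoxa1, Nbl1 and Sbspon for Il33 (Pearson's r at least 0.999 for each), and Acbd3, Hps6 and LOC103694380 for Il1b (also at least 0.999). With Il33, 334 tested genes had r over 0.99, and with Il1b 60 did, so these 6 are not singled out by more than rank. For Il18bp they were St6gal1, RGD1565355 and Mfap5, with r of 0.995, 0.991 and 0.9895. Like Il18bp, RGD1565355 and Mfap5 were listed at 0 in RSC replicate 2, and St6gal1 was at 13.8 FPKM there against 29.0 and 27.1 FPKM in the other two RSC samples. These correlations carry no test.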

How the data were processed

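RNA of SCPs and RSCs was sequenced by the authors as stranded paired-end mRNA libraries and processed on rn6, per the labels with TopHat2 2.1.0 and Cufflinks 2.2.1. The deposited table of each sample gives FPKM per transcript, normalised for length and mapped fragments, with an interval on that scale, and read coverage, a signal from which relative depth was taken (0.88 to 1.00 of the highest sample in SCPs, 0.79 to 0.84 in RSCs). The tables held no counts, so no count test was run and absolute depth is unknown. Rows named by a date (77 per table) were dropped and stray cells beside 59 rows ignored. FPKM of named transcripts were summed by symbol.

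Genes averaging 1 FPKM or more were compared with limma 3.58.1 (R 4.3.3) on log2(FPKM + 1), two-sided, with a variance trend. Adjustment was by Benjamini-Hochberg over the 13003 tested genes. On simulated data the fit recovered 90.5% of 200 genes changed by a log2 fold change of 3 and called 0.906% of unchanged genes. The simulated noise was normal, without values listed at 0, and the changed genes were drawn from the more expressed ones. These rates therefore do not cover members with low values or values listed at 0. As alternatives, unnamed transcripts were added to the gene they overlapped most in their Cufflinks locus, the pseudocount was set to 0.1, the filter was removed or raised to 5 FPKM, and quantile normalization or median-of-ratios scaling was applied. The fit was also run without the trend, with a replicate block, with adjusted p, on the highest transcript per gene, without each sample, and without values of 0 in a group holding a value of 5 FPKM or more.

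The members and gene lists were chosen with earlier results of these data known. Named genes are the members, the largest changes in each hand-written list, any inflammasome or other family gene, and the 3 genes most like each of the 3 most abundant tested members. Rnf121, Vcam1, Nos2 and the markers named one by one were picked after their values were seen, and a Schwann cell marker is not reported here. The study describes 3 sets of cells per group, and the labels do not say whether they came from separate animals, so p-values measure the spread between these samples, which may be technical.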

Additional observations from a re-analysis of the deposited data

How the results depend on the processing

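Il33, Il1rn, Il1a and Il1b kept their direction and their side of the threshold under all 17 alternatives, with log2 fold changes of 6.16 to 9.50, 3.77 to 6.43, 3.21 to 5.43 and 2.52 to 3.38. Il1r1 did so under 16, with 2.04 to 2.57 apart from 1.91 without SCP replicate 2, and lost its call with the highest transcript per gene (1.31). The sign of Il1rap reversed with unnamed transcripts counted (0.30), with values of 0 left out (1.52), and without RSC replicate 1 or RSC replicate 2 (0.033 in each), and it passed under none. Leaving out 1 sample moved Il1rap between -1.46 and 0.033. Il18 passed with unnamed transcripts counted (2.99) and without RSC replicate 1 (2.28), and Il18bp with values of 0 left out and without RSC replicate 2 (4.47 in each). Il1r2 passed under none.

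The number of members past p under 0.01 was 5, and ranged from 4 with the highest transcript per gene to 7 with unnamed transcripts counted. Leaving out 1 sample gave 5 to 6 members, and 4 to 6 past 4-fold as well. Over all genes 5268 passed, and 8040 with unnamed transcripts counted. Leaving out 1 sample gave 4460 to 4874. Median-of-ratios scaling moved the median log2 fold change of all genes from -0.17 to 0.01 and the share of called genes that were higher in RSCs from 44.6% to 55.5%. The 5 called members passed under it.

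Same-numbered samples did not deviate together (correlations 0.04, -0.00 and 0.03), so the replicate numbers were not taken as pairs. With the replicate number as a block, 4275 genes and 5 members passed. The absolute depth is unknown, so a value listed at 0 sets no limit on expression.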
